A study of Mus musculus with 9 samples.

Results

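The immunity-related GTPases (IRGs) are a family of interferon-inducible proteins that mice use against intracellular pathogens, and 7 of its genes were followed in the mouse paraventricular thalamus (PVT), a thin nucleus at the midline of the thalamus linked to wakefulness. The members were Irgm1, Irgm2, Igtp, Iigp1, Ifi47, Tgtp1 and Tgtp2, chosen by gene name, and all 7 had a row among the 21899 genes of the deposited count table. Bulk RNA-seq was available from wild-type (WT) mice in 3 groups of 3 libraries: PVT taken 7 days after lipopolysaccharide (LPS 7d), 1 day after LPS (LPS 1d) and 1 day after phosphate-buffered saline (PBS 1d), all given intraperitoneally. LPS is a component of the bacterial outer membrane that activates innate immunity. The labels used here give no strain, age, sex or dose, and do not say whether each library came from a separate mouse, so p-values reflect only how far these libraries spread, which may be technical. Libraries held 13211422 to 17210526 counts, so 1 count was worth 0.0587 to 0.0770 CPM (counts scaled to a common library total). A vehicle group at day 7 was not analysed here, so in LPS 7d against PBS 1d the treatment and the day cannot be told apart, and all 3 comparisons share libraries with one another. Y-linked transcripts were present in all LPS libraries and at most 0.0587 CPM, summed over 4 genes, in any PBS library, so LPS treatment and this difference cannot be told apart in either comparison with PBS 1d. Summed over 7 cerebellar genes, LPS 7d libraries had 1478 to 1503 CPM, LPS 1d 171.6 to 182.4 and PBS 1d 215.5 to 226.7. This tissue difference and the day or treatment cannot be told apart in either comparison with LPS 7d.

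In mouse cells, IRG genes are switched on by interferons, which signal through the JAK kinases to STAT and IRF transcription factors. Factors of these families read short DNA elements in the promoters, the gamma-activated site (GAS) and the interferon-stimulated response element (ISRE). The family divides by the sequence of its nucleotide-binding loop. Irgm1, Irgm2 and Igtp (Irgm3) are of the GMS class, regulators that sit on the cell's own membranes and hold the other IRGs inactive there. Iigp1 (Irga6), Ifi47 (Irgd), Tgtp1 and Tgtp2 (both Irgb6) are of the GKS class, effectors that load onto the vacuole around a pathogen such as Toxoplasma gondii and disrupt it. In the brain, IRGs are known for holding Toxoplasma in check in astrocytes.

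In the GRCm39 coordinates of the deposited table, 6 of the 7 genes lay on chromosome 11 in 2 clusters. Irgm1 (48752795-48762510, minus strand), Tgtp1 (48876154-48884999, minus), Tgtp2 (48948021-48955033, minus) and Ifi47 (48967414-48987801, plus) spanned 235.0 kb. Igtp (58090382-58098417, plus) and Irgm2 (58090444-58113608, plus) spanned 23.2 kb, and 99.2% of the Igtp span fell inside that of Irgm2.

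The promoters are shown because 6 of the 7 members rose 1 day after LPS (values follow). Most of the windows used also hold the letters of interferon response elements. A RefSeq window of 250 bases before to 50 after the gene start (GRCm38.p6) was used for 6 members. These were Irgm1, Irgm2, Igtp, Ifi47, Tgtp1 and Tgtp2. Iigp1 was left out, so the counts of members' windows given here do not cover it. Both strands were searched for the ISRE core (GAAA, any 2 bases, GAAA) and the GAS core (TTC, any 3 bases, GAA). The GAS core reads the same on either strand. The ISRE core was found in 5 of the 6 windows and the GAS core in 4, against 3.44% and 8.30% of all 32851 RefSeq windows. The stretches of Irgm2 and Igtp are closely alike, as are those of Tgtp1 and Tgtp2, so these matches are not independent. The following 60-base stretches run 5′ to 3′ on the gene's strand, with the letters of both cores in capitals.
Irgm1: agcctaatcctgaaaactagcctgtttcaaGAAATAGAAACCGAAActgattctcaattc
Irgm2: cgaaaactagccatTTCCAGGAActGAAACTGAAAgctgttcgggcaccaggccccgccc
Igtp: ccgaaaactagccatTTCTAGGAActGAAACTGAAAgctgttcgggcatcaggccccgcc
Tgtp1: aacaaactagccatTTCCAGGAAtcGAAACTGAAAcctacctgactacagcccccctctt
Tgtp2: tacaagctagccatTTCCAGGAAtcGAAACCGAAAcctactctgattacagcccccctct
The stretch of Irgm1 (chr11:48871421-48871480, minus strand) ends 1 base before the start and holds 2 overlapping ISRE cores and no GAS core. Those of Irgm2 (chr11:58214888-58214947, plus), Igtp (chr11:58199496-58199555, plus), Tgtp1 (chr11:48992289-48992348, minus) and Tgtp2 (chr11:49064248-49064307, minus) each hold a GAS core, 2 bases and an ISRE core. This paired arrangement, which was searched for after the members' windows had been seen, occurred in 5 of the 32851 windows (0.0152%): Irgm2, Igtp, Tgtp1, Tgtp2 and Gm12185, another gene of the family. The window of Ifi47 held neither core, nor did those of the other family genes Gm5431, 9930111J21Rik2 and Irgq. That of 9930111J21Rik1 held no GAS core and an ISRE core that lay after the gene start, at bases 27 to 36, not before it as in the members. A match describes letters only and shows no binding. Ifi47, Gm5431 and 9930111J21Rik2, with neither core, rose at LPS 1d against PBS 1d (4.76-, 4.84- and 3.74-fold). Irgm1, Irgm2, Igtp, Tgtp2 and 9930111J21Rik1, with an ISRE core, rose as well. Irgq, with neither core, did not pass. Tgtp1 and Gm12185, with both cores, were too low to test, and Gm12185 had 22 counts at LPS 1d and 16 in PBS 1d. A link of the cores to the rise was not tested. The windows of Igtp and Irgm2 lie far apart, while their rows in the deposited table start close together (58090382 and 58090444, GRCm39). These windows therefore cannot both sit at the starts of the counted rows, and window starts were not matched to row starts.

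One day after LPS, IRG transcripts were several-fold more abundant in the PVT than after PBS. Irgm1, Irgm2, Igtp, Iigp1, Ifi47 and Tgtp2, the 6 members with enough counts to test, all rose, by 2.87-fold (Irgm2) to 9.93-fold (Iigp1), and their LPS 1d and PBS 1d libraries did not overlap. Genes were tested with edgeR's quasi-likelihood method at a Benjamini-Hochberg adjusted p under 0.05 over 14837 genes, of which 49.1% passed in either direction, 24.9% rose and 27.4% had all LPS 1d libraries above all PBS 1d libraries. The median log2 fold change was 2.22 over the 6 members and -0.01 over all tested genes. Ranked by log2 fold change among the 14837 genes, the members stood at 66 (Iigp1), 124 (Irgm1), 170 (Ifi47), 184 (Tgtp2), 192 (Igtp) and 326 (Irgm2). In bulk tissue, more cells of a type and more RNA per cell cannot be told apart.

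Of the GMS regulators, Irgm1, which acts at lysosomes and the Golgi, was the most abundant. It had 41.4, 42.2 and 44.1 CPM in the LPS 1d libraries, against 7.64, 7.34 and 6.74 CPM in the PBS 1d libraries. The LPS 1d libraries spread by 3.23% around their mean (CV), where counting alone gives 3.93%. The edgeR log2 fold change was 2.55 ± 0.10 (SE, n = 3 each; 5.87-fold, 95% interval 5.09 to 6.76; adjusted p = 7.98e-27). Igtp, found on the endoplasmic reticulum, had 10.6, 10.3 and 8.88 CPM at LPS 1d, against 1.70, 2.40 and 2.73 CPM in PBS 1d. Its log2 fold change was 2.13 ± 0.19 (4.37-fold, 3.35 to 5.71; edgeR adjusted p = 2.49e-13). Irgm2, a Golgi-associated regulator, had 10.1, 10.8 and 9.49 CPM at LPS 1d, against 3.52, 2.78 and 4.29 CPM in PBS 1d. It had the smallest change of the 6, 1.52 ± 0.17 in log2 units (2.87-fold, 2.27 to 3.62; edgeR adjusted p = 1.03e-10), and its interval lay wholly below those of Irgm1 and Iigp1 but overlapped that of Igtp.

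Of the GKS effectors, Iigp1 (chromosome 18, 60509099-60525706, plus strand, the only member away from chromosome 11), which coats the pathogen vacuole, changed by the largest factor. It had 12.6, 11.4 and 10.8 CPM in the LPS 1d libraries, against 0.940, 1.77 and 0.749 CPM in the PBS 1d libraries. The PBS 1d values rest on 16, 28 and 11 counts and vary by 47.1% (CV), where counting alone gives 23.4%. The log2 fold change was 3.31 ± 0.21 (9.93-fold, 7.39 to 13.4; edgeR adjusted p = 1.68e-18), and this interval lay above that of Irgm1. Ifi47, an effector recruited to the same vacuole, had 39, 69 and 44 counts (3.005, 4.30 and 2.68 CPM) at LPS 1d, against 13, 8 and 12 counts (0.764, 0.506 and 0.818 CPM) in PBS 1d. The lowest LPS 1d library was thus more than 3-fold above the highest PBS 1d library, and the log2 fold change was 2.25 ± 0.34 (4.76-fold, 2.97 to 7.61; edgeR adjusted p = 2.18e-07). Tgtp2, an effector first described in T cells, had 28, 27 and 42 counts (2.16, 1.68 and 2.55 CPM) at LPS 1d, against 5, 12 and 5 counts (0.294, 0.759 and 0.341 CPM) in PBS 1d. Its log2 fold change was 2.18 ± 0.41 (4.54-fold, 2.58 to 7.997; edgeR adjusted p = 1.34e-05).

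**Figure D1:**
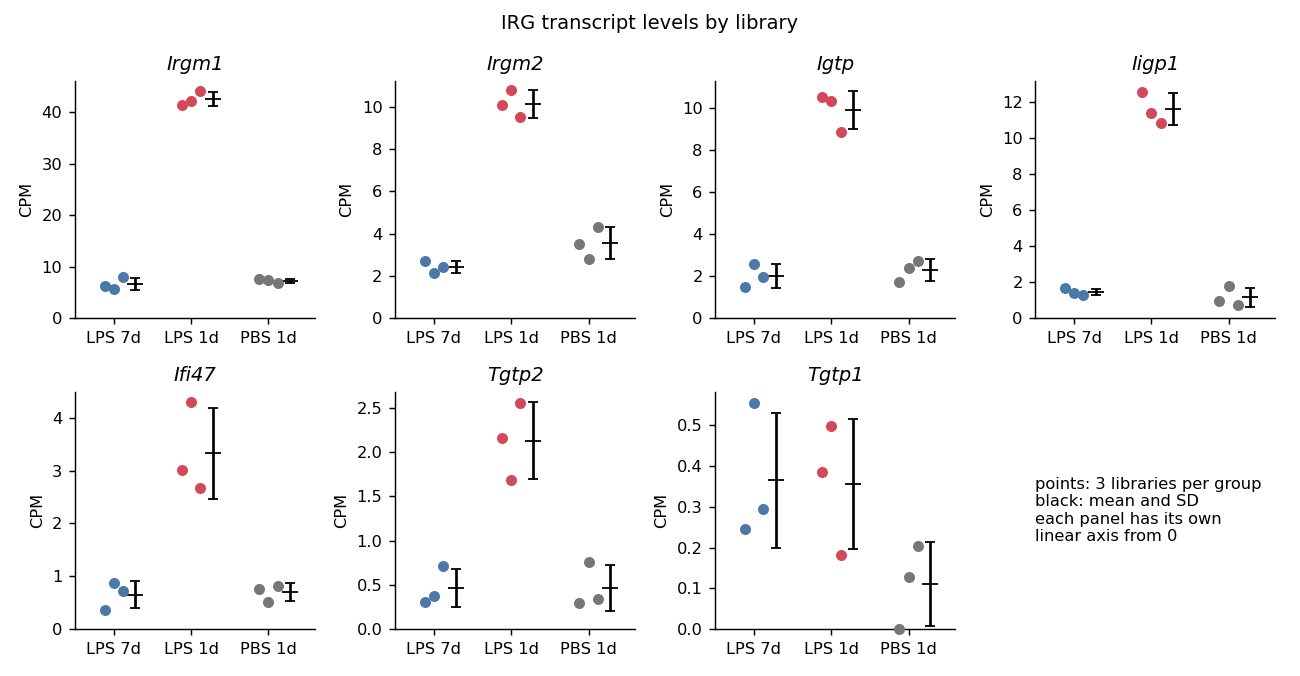
CPM of each IRG gene in every library (points; linear axes from 0, a separate one per gene), with the group mean and SD, in LPS 7d, LPS 1d and PBS 1d libraries (n = 3 each). In the 6 tested genes the LPS 1d points lie above all others, and Tgtp1 stays below 0.6 CPM throughout.

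Tgtp1, the near-identical neighbour of Tgtp2, had too few counts to tell its change at LPS 1d from those of the others. Its summed counts were similar at LPS 1d and LPS 7d, where those of the others fell. Tgtp1 had 4, 9 and 5 counts in LPS 7d libraries, 5, 8 and 3 in LPS 1d libraries, and 0, 2 and 3 in PBS 1d libraries. It so fell under the count minimum. Scaled for depth, the ratio of its summed counts was 3.34 for LPS 1d over PBS 1d (95% counting interval 1.17 to 11.7) and 3.46 for LPS 7d over PBS 1d (1.24 to 11.9). Without the filter its log2 fold changes were 1.67 ± 0.91 at LPS 1d against PBS 1d (edgeR adjusted p = 0.138) and 1.72 ± 0.90 at LPS 7d against PBS 1d (edgeR adjusted p = 0.146). The intervals cover counting error only. In GENCODE M21 transcripts (GRCm38), 74.6% of the 75-base windows of Tgtp1 also occur in Tgtp2, and 81.4% of those of Tgtp2 occur in Tgtp1, so the division of reads between the 2 genes is uncertain. Summed to a single gene, Tgtp1 and Tgtp2 rose by 2.11 ± 0.37 in log2 units at LPS 1d against PBS 1d (edgeR adjusted p = 4.71e-06). The corresponding share of windows was 7.80% for Igtp (with Irgm2), 4.78% for Irgm2, 1.55% for Ifi47 and 0% for Irgm1 and Iigp1. How the counting treated reads over overlapping genes is not given in the sources used here.

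At LPS 7d, most IRG genes were near the PBS 1d level. Of the 6 tested members, Irgm2 alone passed the test in LPS 7d against PBS 1d, and it fell, beside 35.6% of all genes that passed, 18.9% that fell, 16.8% that rose and 22.7% that had all LPS 7d libraries below all PBS 1d libraries. Irgm2 had 2.70, 2.16 and 2.42 CPM in the LPS 7d libraries, against 3.52, 2.78 and 4.29 CPM in the PBS 1d libraries, and the groups did not overlap. The log2 fold change was -0.54 ± 0.21 (fold 0.690, 0.518 to 0.919; edgeR adjusted p = 0.0362, n = 3 each). This call did not hold with library size in place of TMM scaling (adjusted p = 0.0522), in DESeq2 (0.0579), in an edgeR fit of these 2 groups alone (0.0662), or in edgeR without PBS 1d replicate 1 (0.0729), PBS 1d replicate 3 (0.227), LPS 7d replicate 2 (0.127) or LPS 7d replicate 3 (0.0731).

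The other 5 tested members did not pass. Irgm1 had 6.31, 5.74 and 7.98 CPM at LPS 7d, which span its 3 PBS 1d values, with a log2 fold change of -0.12 (95% interval -0.38 to 0.14; edgeR adjusted p = 0.518). Igtp had 1.47, 2.59 and 1.95 CPM at LPS 7d and a log2 fold change of -0.17 (-0.66 to 0.32; edgeR adjusted p = 0.623). Iigp1 had 1.65, 1.42 and 1.30 CPM at LPS 7d and a log2 fold change of 0.33 (-0.26 to 0.92; edgeR adjusted p = 0.413). The intervals of these genes leave room for differences of less than 2-fold in either direction. Ifi47 had 0.368, 0.863 and 0.710 CPM at LPS 7d (-0.10, interval -0.98 to 0.78; edgeR adjusted p = 0.884). Tgtp2 had 0.306, 0.370 and 0.710 CPM at LPS 7d (0.00, interval -1.04 to 1.05; edgeR adjusted p = 0.996). For these low genes a change of up to about 2-fold was not detectable at this depth. Summed, Tgtp1 and Tgtp2 differed by 0.54 ± 0.44 in log2 units (edgeR adjusted p = 0.368).

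Between the 2 LPS times, all 6 tested members fell at LPS 7d against LPS 1d and had no overlap between groups, beside 56.6% of all genes that passed, 29.1% that fell, 31.1% whose LPS 7d libraries were all below and 29.5% whose LPS 7d libraries were all above. Iigp1 fell by 2.98 ± 0.20 on the log2 scale (edgeR adjusted p = 3.93e-18) and Irgm1 fell by 2.67 ± 0.10 (edgeR adjusted p = 5.21e-28). Ifi47 fell by 2.35 ± 0.34, Igtp fell by 2.30 ± 0.19, Tgtp2 fell by 2.18 ± 0.40 and Irgm2 fell by 2.06 ± 0.18 on the same scale, with edgeR adjusted p between 7.80e-06 (Tgtp2) and 1.08e-14 (Igtp). The median over the 6 was -2.33, and over all tested genes 0.00. Tgtp1 had 18 counts in all at LPS 7d and 16 at LPS 1d, a depth-scaled ratio of 1.03 (0.498 to 2.17).

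**Figure D2:**
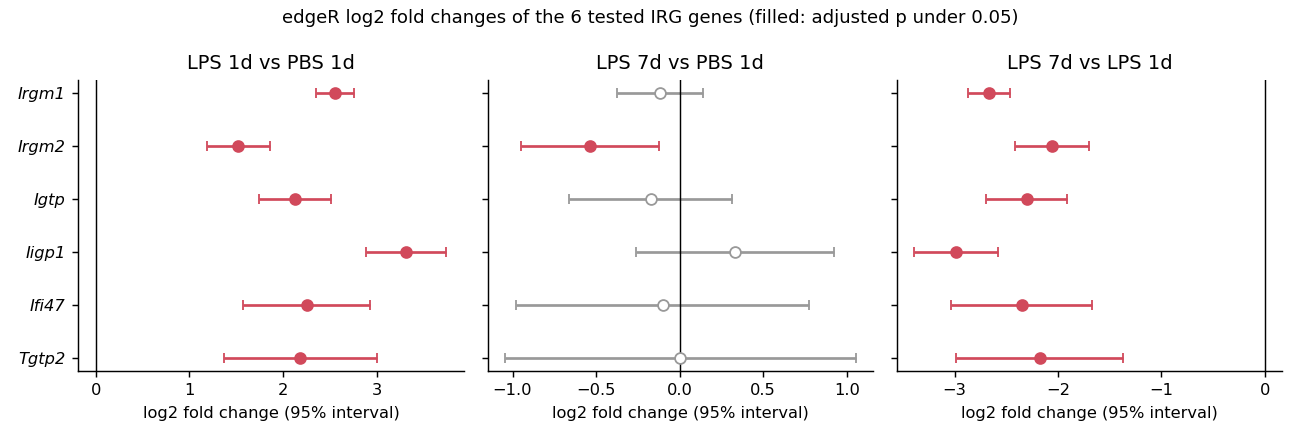
Log2 fold change of the 6 tested IRG genes with its 95% interval (edgeR, n = 3 per group) in LPS 1d against PBS 1d, LPS 7d against PBS 1d and LPS 7d against LPS 1d. The intervals lie above 0 in the first comparison and below 0 in the last, and in LPS 7d against PBS 1d those of all genes but Irgm2 cross 0.

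Levels of different genes were compared per length, as FPKM (fragments divided by gene length and by library size) of the deposited table. At LPS 1d the order was Irgm1 (7.20 ± 0.232 FPKM, SD, n = 3), Igtp (4.82 ± 0.443), Irgm2 (2.70 ± 0.172), Iigp1 (1.96 ± 0.148), Ifi47 (1.32 ± 0.341), Tgtp2 (0.713 ± 0.146) and Tgtp1 (0.109 ± 0.0491), and no neighbours in that order overlapped. In PBS 1d, Irgm1 (1.24 ± 0.0732 FPKM), Igtp (1.12 ± 0.262) and Irgm2 (0.953 ± 0.204) overlapped. Below them came Ifi47 (0.280 ± 0.0666 FPKM), Iigp1 (0.197 ± 0.0934) and Tgtp2 (0.157 ± 0.0873), whose neighbours also overlapped, and Tgtp1 (0.0343 ± 0.0321) was below all. At LPS 7d the order of the genes was that of PBS 1d, with Irgm2 (0.673 ± 0.0784 FPKM) and Ifi47 (0.267 ± 0.104) the only neighbours that did not overlap. The 3 GMS regulators were thus above the 4 GKS effectors in mean FPKM in every group, and Iigp1 stood above Ifi47 only at LPS 1d. These levels rest on how reads were assigned, which is uncertain for some members. Of the 75-base windows, 77.2% in Tgtp1 and 81.4% in Tgtp2 also occur in other genes. For Igtp, 99.2% of the span lies inside that of Irgm2, so their order is uncertain too.

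The make-up of the family's summed level was not tested and is given as a description. The shares and ratios carry the same uncertainty in how reads were assigned. The 7 genes summed to 3.66 ± 0.352 FPKM at LPS 7d, 18.8 ± 0.656 at LPS 1d and 3.98 ± 0.330 in PBS 1d (SD, n = 3 each). The GKS effectors made up 21% to 22.4% of that sum at LPS 1d, against 14.8% to 20.1% in PBS 1d. At LPS 7d their share was 19.4% to 23.8%, which overlaps both. Irgm1 was 2.49 to 2.95 times Irgm2 in FPKM at LPS 1d, against 0.998 to 1.67 times in PBS 1d. At LPS 7d the ratio was 1.49 to 2.09, which overlaps that of PBS 1d.

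**Figure D3:**
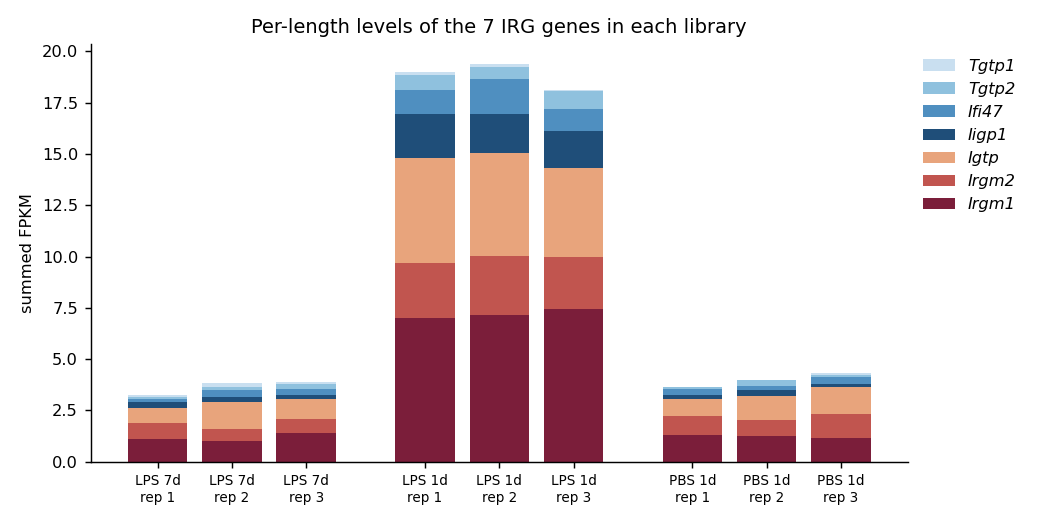
FPKM of the 7 IRG genes stacked for each library, in LPS 7d, LPS 1d and PBS 1d (3 libraries each), with GMS genes in red shades and GKS genes in blue shades. The LPS 1d stacks reach 18.1 to 19.4 FPKM, and those of LPS 7d (3.26 to 3.90) and PBS 1d (3.64 to 4.30) are at similar heights.

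Of 15 other IRG family genes looked for, 9 had a row and 5 passed the count filter. Of these 5, 4 rose at LPS 1d against PBS 1d, beside 24.9% of all tested genes. Gm5431 had 44, 48 and 67 counts at LPS 1d, against 16, 7 and 11 in PBS 1d, and rose by 2.28 ± 0.35 in log2 units (edgeR adjusted p = 2.93e-07). Gm4951 had 24, 16 and 16 counts at LPS 1d, against 3, 1 and 7 in PBS 1d, and rose by 2.38 ± 0.56 (edgeR adjusted p = 0.000347). 9930111J21Rik1 rose by 2.45 ± 0.51 and 9930111J21Rik2 by 1.90 ± 0.40, both with edgeR adjusted p under 0.0001. One library of 9930111J21Rik2 stood apart, with 14 counts in LPS 1d replicate 1 beside 51 and 45 in the other 2, and 12, 9 and 9 in PBS 1d. These 4 genes did not pass in LPS 7d against PBS 1d. All 4 fell in LPS 7d against LPS 1d, beside 29.1% of all tested genes. Only the groups of 9930111J21Rik2 overlapped there, with 25 counts (1.48 CPM) in LPS 7d replicate 3 and 14 counts (1.08 CPM) in LPS 1d replicate 1. There the call of 9930111J21Rik1 did not hold without LPS 7d replicate 3 (edgeR adjusted p = 0.0577). Of the 75-base windows of these genes, 76.0% in 9930111J21Rik1, 52.1% in 9930111J21Rik2 and 27.2% in Gm5431 occur in other genes. The division of their reads is thus uncertain as well.

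Irgq, a divergent family member, was far more abundant and moved little. It had 156.2, 146.0 and 153.0 CPM at LPS 1d, against 158.7, 155.9 and 163.7 CPM in PBS 1d, a log2 fold change of -0.07 ± 0.04 (edgeR adjusted p = 0.180). At LPS 7d it had 133.3, 146.8 and 137.6 CPM and fell by 0.20 ± 0.04 on the log2 scale against PBS 1d (edgeR adjusted p = 0.000366). The 4 remaining genes were too low to test. F830016B08Rik had 25 counts in all at LPS 1d and 1 in PBS 1d, a ratio of 26.1 (95% counting interval 4.28 to 1072). Irgc1 had 20 counts at LPS 1d and 6 in PBS 1d, Gm4841 had 12 at LPS 1d and 2 in PBS 1d, and Gm12185 had 22 at LPS 1d and 16 in PBS 1d. A further row, the olfactory receptor gene Olfr56, was picked out after its values were seen, since its span in the deposited table covers all of Ifi47, on the same strand, and of Tgtp1 and Tgtp2, on the other. It had 16, 11 and 16 counts at LPS 1d, against 0, 1 and 0 in PBS 1d (ratio 44.9, counting interval 7.64 to 1815). Of the 75-base windows of Ifi47, 1.55% also occur in Olfr56.

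The genes upstream of the IRGs were followed next. None of 9 interferon genes passed the count filter, and Ifng and Ifnb1, the genes of interferon gamma and beta, had 0 counts in all 9 libraries, which allows up to 0.176 to 0.231 CPM per library. Among 5 tested receptor subunits, 1 rose and 1 fell at LPS 1d against PBS 1d. These shares are near those of all tested genes, of which 24.9% rose and 24.2% fell. Ifngr1, the ligand-binding chain of the interferon gamma receptor, rose by 0.43 ± 0.11 in log2 units in that comparison (edgeR adjusted p = 0.00148). Its partner Ifngr2 fell by 0.17 ± 0.07 on that scale (edgeR adjusted p = 0.0314), and Ifnar1, Ifnar2 and Il10rb did not pass. Without PBS 1d replicate 1 no receptor passed in edgeR, and the call of Ifngr2 was also lost without PBS 1d replicate 3, LPS 1d replicate 2 or LPS 1d replicate 3.

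Of 14 JAK, STAT and IRF genes tested, 8 rose and 2 fell at LPS 1d against PBS 1d, beside 24.9% and 24.2% of all genes, with a median log2 fold change of 0.85. Irf7, the factor that amplifies interferon responses, had 25.96, 23.8 and 27.6 CPM at LPS 1d, against 4.17, 4.87 and 3.88 CPM in PBS 1d, and rose by 2.58 ± 0.13 (edgeR adjusted p = 2.93e-22). Stat3, which relays signals of the interleukin 6 family, rose by 1.23 ± 0.05, Stat2 by 1.21 ± 0.06 and Irf9 by 1.11 ± 0.09, the last 2 being partners in the ISRE-binding complex. Irf1, a factor that also reads the ISRE and was chosen after its values were seen, rose by 0.79 ± 0.18. Irf3 fell by 0.63 ± 0.12 and Ciita, the activator of class II antigen presentation genes, fell by 0.82 ± 0.29 on the log2 scale. The edgeR call of Ciita was lost without PBS 1d replicate 1 (adjusted p = 0.0515), PBS 1d replicate 3 (0.0856), LPS 1d replicate 2 (0.0653) or LPS 1d replicate 3 (0.0527). In LPS 7d against PBS 1d, 2 of the 14 rose (Stat2 by 0.51 and Irf3 by 0.54), beside 16.8% of all genes. With library size only, 4 rose. Beside 18.9% of all genes, 2 of the 14 fell. Of these, Irf7 had 1.41, 2.47 and 1.48 CPM at LPS 7d, below every PBS 1d library, and fell by 1.27 ± 0.20 on the log2 scale (edgeR adjusted p = 7.08e-07).

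Feedback inhibitors of the pathway rose in 5 of 8 genes at LPS 1d against PBS 1d, beside 24.9% of all genes, and 0 fell in edgeR or in DESeq2, with 1 lower at an unadjusted edgeR p under 0.05. In edgeR the 0 became 1 (Ptpn2) with library size only, upper-quartile scaling or the replicate block, and without PBS 1d replicate 1, LPS 1d replicate 2 or LPS 7d replicate 1, with edgeR adjusted p of 0.0251 to 0.0488. Socs3, which blocks receptor-bound JAKs, rose by 2.26 ± 0.17 in log2 units, Usp18, which quiets the type I interferon receptor, by 1.98 ± 0.29, Pias1 by 0.37 ± 0.05 and Ptpn1 by 0.23 ± 0.06. The guanylate-binding proteins, the larger GTPases that act on the same vacuoles, rose in 9 of 9 tested genes at LPS 1d against PBS 1d. Their median log2 fold change was 2.41, and 24.9% of all genes rose. Gbp2 rose by 2.41 ± 0.13, Gbp3 by 1.90 ± 0.10, Gbp4 by 2.72 ± 0.16 and Gbp5 by 2.23 ± 0.15.

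The ATG8 conjugation and vacuole-targeting genes, whose products help deliver IRGs to the vacuole or tag it, were mixed. Of 22 tested, 8 rose and 3 fell at LPS 1d against PBS 1d, and the median log2 fold change was 0.00. The 11 that passed are a share near the 49.1% of all genes, and with library size only or upper-quartile scaling in place of TMM the number that fell was 5 or 6. Rnf213, a ubiquitin ligase that coats intracellular pathogens, had 72.7, 72.5 and 70.1 CPM at LPS 1d, against 22.8, 18.8 and 20.9 CPM in PBS 1d, and rose by 1.78 ± 0.07. Traf6 and Trim21, also ubiquitin ligases, rose by 0.48 ± 0.07 and 1.05 ± 0.17. The conjugation genes Atg12 and Atg3 fell by 0.29 ± 0.06 and fell by 0.20 ± 0.07 on the log2 scale, and the edgeR call of Atg3 was lost without PBS 1d replicate 1 (adjusted p = 0.0721), PBS 1d replicate 2 (0.0890), LPS 1d replicate 1 (0.0812) or LPS 1d replicate 3 (0.0745).

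**Figure D4:**
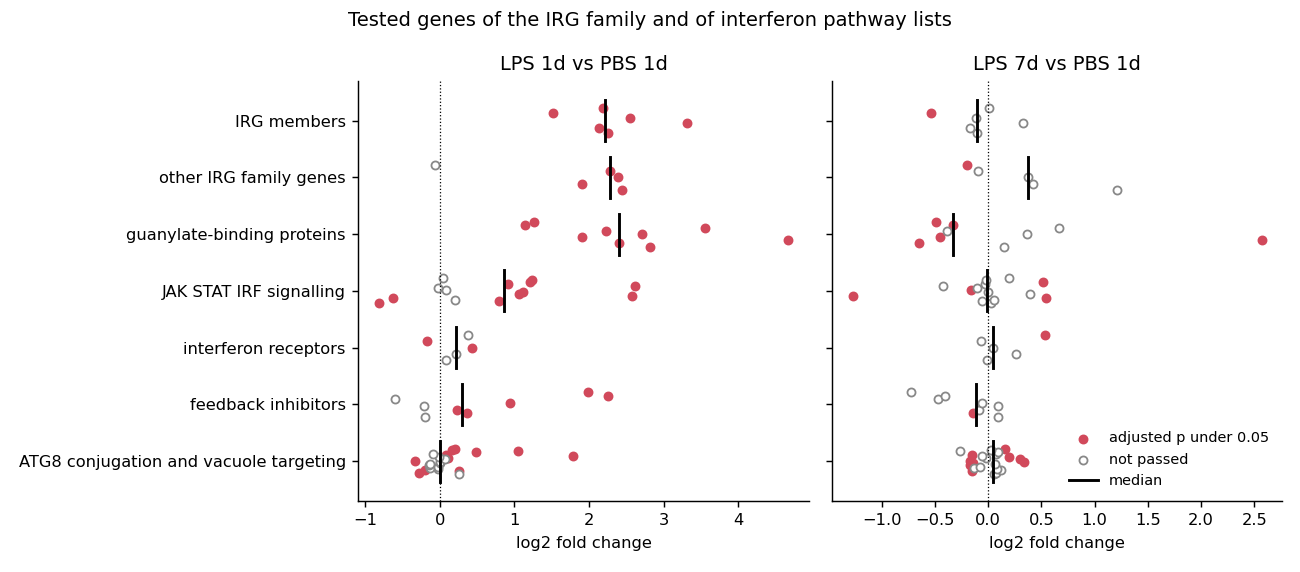
Log2 fold changes (edgeR, each point 1 tested gene) of the IRG members and of the related gene lists, at LPS 1d against PBS 1d and at LPS 7d against PBS 1d, with genes that passed as filled points and the list median as a bar. In LPS 1d against PBS 1d all IRG members and all guanylate-binding protein genes lie above 1, and the ATG8 genes scatter around 0.

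The 5 genes outside the family whose log2 CPM followed the mean IRG profile most closely over the 9 libraries were Usp24 (Pearson r 0.998), Igfbp3, Cebpd and Ifitm3 (0.997 each) and Ccn3 (0.995), beside 0.943 to 0.993 for the members themselves. These 9 libraries form 3 groups, so the likeness is mainly that of the group means. Each member is itself part of the mean profile, and r takes no account of the size of a change. The lowest member value, 0.943, was that of Tgtp2, which had 5 to 42 counts per library. Ifitm3, an interferon-induced protein that blocks virus entry, averaged 6.72 ± 0.502 CPM at LPS 7d, 40.8 ± 3.29 at LPS 1d and 7.37 ± 0.496 in PBS 1d (SD, n = 3 each). Usp24, a deubiquitinase, had the same shape at a much smaller size, with 135.9 ± 4.33 CPM at LPS 7d, 214.6 ± 2.24 at LPS 1d and 139.5 ± 1.61 in PBS 1d.

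Markers of tissue and cell types differed between the groups, and their part in the IRG values was not tested. The 10 PVT and midline thalamus genes summed to 526.8 to 559.0 CPM at LPS 7d, 458.6 to 473.2 CPM at LPS 1d and 663.6 to 679.2 CPM in PBS 1d. Of these 10, 7 fell at LPS 1d against PBS 1d, beside 24.2% of all tested genes. At LPS 7d against PBS 1d, 5 fell and 1 rose, beside 18.9% and 16.8% of all tested genes. The 7 neuron genes summed to 4906 to 4983 CPM at LPS 7d, 5585 to 5610 CPM at LPS 1d and 5167 to 5294 CPM in PBS 1d. The 5 oligodendrocyte genes summed to 8074 to 8659 CPM at LPS 7d, 5892 to 5899.7 CPM at LPS 1d and 6142 to 6439 CPM in PBS 1d.

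Glial and vascular lists held genes that moved opposite ways. Their counts stand beside 24.9% of all tested genes that rose and 24.2% that fell at LPS 1d against PBS 1d. The 6 astrocyte genes summed to 1484 to 1508 CPM at LPS 7d, 1446 to 1476 CPM at LPS 1d and 1127 to 1151 CPM in PBS 1d. At LPS 1d against PBS 1d, 4 of them rose, Gfap by 1.51 ± 0.04 in log2 units, and 2 fell (Aqp4, edgeR adjusted p = 0.0268, and Gja1, edgeR adjusted p = 0.0137). The 7 microglia genes summed to 249.4 to 255.5 CPM at LPS 7d, 239.0 to 243.6 CPM at LPS 1d and 247.9 to 265.0 CPM in PBS 1d. At LPS 1d against PBS 1d, 1 of them rose (Csf1r) and 3 fell, P2ry12 with a log2 fold change of -1.03 ± 0.08. The 7 endothelial genes summed to 322.2 to 337.3 CPM at LPS 7d, 316.6 to 320.5 CPM at LPS 1d and 271.4 to 275.8 CPM in PBS 1d, with 4 genes up and 3 down at LPS 1d against PBS 1d.

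Of 12 T and NK cell genes, 7 were at 0 at LPS 1d and Cd3d was at 0 in all libraries. The list summed to 4.78 to 5.37 CPM at LPS 7d, 8.70 to 10.6 CPM at LPS 1d and 15.1 to 18.1 CPM in PBS 1d, mostly Cd4. The 8 neutrophil genes summed to 0.118 to 0.493 CPM at LPS 7d, 0.547 to 1.06 CPM at LPS 1d and 0.341 to 0.380 CPM in PBS 1d, with Ly6g at 0 throughout. The 7 monocyte and macrophage genes summed to 4.35 to 7.22 CPM at LPS 7d, 9.43 to 11.02 CPM at LPS 1d and 9.98 to 11.1 CPM in PBS 1d, and the 4 B cell genes to at most 0.555 CPM in any library. The 7 cerebellar genes summed to 1478 to 1503 CPM at LPS 7d, 171.6 to 182.4 CPM at LPS 1d and 215.5 to 226.7 CPM in PBS 1d. All 7 rose at LPS 7d against PBS 1d, by 0.71 to 10.80 in log2 units, beside 16.8% of all tested genes. The 4 Y-linked genes summed to 90.5 to 101.8 CPM at LPS 7d, 81.4 to 85.2 CPM at LPS 1d and at most 0.0587 CPM in PBS 1d.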

How the data were processed

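Total RNA from PVT was extracted with Trizol and made into TruSeq libraries, per the labels' protocols. The authors deposited raw gene counts, FPKM values (counts per gene length and per library total) and the other columns of position and length. TopHat2, HISAT2, HTSeq and GRCm39 are named, per the submitters' processing notes, with no role, version, setting or strandedness given in these sources. FPKM recomputed from the deposited counts differed by at most 1.58e-07 (relative).

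Counts were fitted in edgeR 4.0.16 (R 4.3.3) by quasi-likelihood on all 9 libraries, with TMM factors of 0.983 to 1.03 and filterByExpr (minimum count 10), which kept 14837 of 21899 genes; 3516 had no count. The common biological coefficient of variation was 4.15%, and 43.4 prior degrees of freedom drew the genes' spread toward the trend. Tests were two-sided, with p-values adjusted by Benjamini and Hochberg over all tested genes. CPM are TMM-scaled. The scripts were tested on simulated data. DESeq2 1.42.0, other scalings, no filter, a 2-group fit, a replicate block, summed Tgtp genes and leaving out each library were the alternatives. Ratios of summed counts carry exact 95% counting intervals, and a count of 0 allows 3 counts.

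The members and lists were chosen with earlier results of these data known. Named genes were all IRG genes, the 4 smallest p of each list at LPS 1d against PBS 1d, up to 2 that moved against their list, ligands and markers near 0, and the 5 genes most like the mean member profile (log2 CPM, prior count 2). Figures were drawn with matplotlib 3.10.9.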

Additional observations from a re-analysis of the deposited data

How the results depend on the processing

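In LPS 1d against PBS 1d and in LPS 7d against LPS 1d, 6 IRG members passed under every alternative run, in the same direction each time. In LPS 7d against PBS 1d the count of 1 (Irgm2) became 0 with library size only, with DESeq2 and with the 2 groups alone, where in each case 1 member had an unadjusted p under 0.05; it was 0 to 1 when single libraries were left out. The cause was not tested.

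Signs turned only in LPS 7d against PBS 1d, where none of the values concerned passed the test. Usp24 was 0.0014 in log2 units with library size only. Over the fits that left out 1 library, Tgtp2 ranged from -0.45 to 0.55, Gm5431 from -0.53 to 0.33, Gm4951 from -0.34 to 1.27, Ifi47 from -0.36 to 0.18, Igtp from -0.40 to 0.0055 and 9930111J21Rik2 from -0.27 to 0.69. Irgq lost its call in LPS 7d against LPS 1d with library size only (edgeR adjusted p = 0.202) and with upper-quartile scaling (edgeR adjusted p = 0.0508), and without LPS 1d replicate 1, LPS 1d replicate 3, LPS 7d replicate 1 or LPS 7d replicate 3 (edgeR adjusted p of 0.0567 to 0.103).

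Replicate numbers did not pair the libraries: same-numbered libraries had deviations correlated at -0.02 to 0.03, and 4 of 9 were closest to their own number. With the replicate block, 6, 1 and 6 members passed in LPS 1d against PBS 1d, LPS 7d against PBS 1d and LPS 7d against LPS 1d, among 7144, 5139 and 8270 genes called (7289, 5287 and 8399 without it), and Tgtp2 was -0.021 in log2 units in LPS 7d against PBS 1d.

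Depth limits Tgtp1, Tgtp2 and Ifi47 most, whose PBS 1d libraries held at most 13 counts each.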
